A study of Mus musculus with 21 samples.

Results

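Solute carriers are membrane proteins that move small molecules such as amino acids, sugars, metals, nucleotides and vitamins across the plasma membrane and the membranes of organelles. Their families are numbered, and the members of a family usually share a fold and often a substrate class. In dendritic cells and macrophages they are known for iron and heme handling after phagocytosis, for the cystine uptake that feeds glutathione, for the import of arginine, and for transport out of the lysosome.

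The 210 genes described here are those with a symbol of the Slc form whose probe passed a brightness rule. The members were chosen by measured brightness: the intensity ranked 3 from the top of a probe's 21 values had to exceed 47.3, the median of all deposited values, and each gene was read from its brightest passing probe. Of 326 Slc genes on the array, 116 did not pass, and the members are 210 of the 10587 genes tested. Just inside the rule, by the intensity of rank 3, lay Slc15a2 (47.4), Slc25a48 (47.5) and Slc7a1 (47.5), and just outside it lay Slc6a17 (47.3) and Slc17a7 (47.2). Since brightness chose the members, the level itself is a description. The probes of 125 members were above 47.3 on all 21 arrays, and 40 were above it on fewer than 10. Slc22a17, Slc26a9, Slc32a1, Slc44a1 and Slc6a20a were above it only at 8 and 24 h, so these 5 genes passed through the times at which they were high, and Slc22a17 and Slc25a40 (2 genes) passed only through crel-/-relb-/- arrays. Counts of members below describe the genes that passed, and the main counts over all 210 are set beside the share of all tested genes. Counts within a substrate class are to be read against the share given for the same comparison.

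The cells were bone marrow-derived dendritic cells of strain C57Bl6, either WT, relb-/- or crel-/-relb-/-. RelB and c-Rel are subunits of the transcription factor NF-kB, and no mice lacking c-Rel alone are among the groups, so the loss of c-Rel is seen only by setting crel-/-relb-/- beside relb-/-. Each genotype was measured unstimulated at 0 h and at 1, 8 and 24 h with CpG, which is sensed by TLR9, or Pam3CSK4, which is sensed by TLR2, on 1 Illumina array per genotype and condition (7 arrays each). The 0 h arrays are labelled as CpG at 0 h and are read here as unstimulated cells for both agents. The labels do not say whether arrays came from separate cultures or animals, so a p-value here measures how constant a difference was over conditions, and it may not cover the spread between animals. Intensities were log2-transformed and fitted with limma over all genes. Genes with an adjusted p below 0.05 (Benjamini-Hochberg over the 10587 genes, two-sided) are said to be called, higher or lower.

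The Relb probe lay between 148 and 267 on WT arrays, between 65.9 and 153 on relb-/- arrays and between 60.6 and 180 on crel-/-relb-/- arrays. The Rel probe lay between 33.6 and 45.5 on crel-/-relb-/- arrays and at 61.1 or above on all others. The sources used here do not say whether these probes lie in the deleted parts, so the Relb probe, which overlaps between genotypes, is not a full check of the labels. Of 10 dendritic cell markers, 9 had a passing probe, and 8 of these were above 47.3 on all 21 arrays (Itgae on 17). A single array, that of crel-/-relb-/- cells with CpG at 24 h, stood apart, with a residual SD over the members of 0.193 on the log2 scale against 0.0858 to 0.132 on the other 20 arrays. In bulk RNA a lower level can come from fewer cells of a type or from less RNA per cell, and these cannot be told apart. Dim probes read near 47.3 and not near 0, so that folds of dim genes may be understated.

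Few transporters were changed at 1 h and many at 8 and 24 h, against 0 h. The genes that moved furthest were metal carriers, with Slc40a1 8.44-fold higher at 8 h and Slc11a1 10.2-fold higher at 24 h, and amino acid carriers, with Slc7a11 4.76-fold higher and Slc7a5 7.99-fold lower at 8 h. At 8 h against 0 h, 41 of 210 members were higher (19.5%) and 28 lower (13.3%), beside 15.0% and 15.9% of all genes tested. At 24 h against 0 h, 52 were higher (24.8%) and 26 lower (12.4%), beside 16.9% and 15.0% of all genes. The share of members called higher exceeded the background at both times and the share called lower was below it, and the median log2 change of the members was 0.017 at 8 h and 0.044 at 24 h, beside 0.003 and 0.005 for all genes. Changes of at least 2-fold were upward in 15 members and downward in 2 at 8 h, and upward in 16 and downward in 2 at 24 h. Each time is compared with the same 3 arrays at 0 h, which both agents share. No unstimulated cells were measured at 1, 8 or 24 h. The effect of an agent and that of time in culture therefore cannot be told apart in changes from 0 h.

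**Figure D1:**
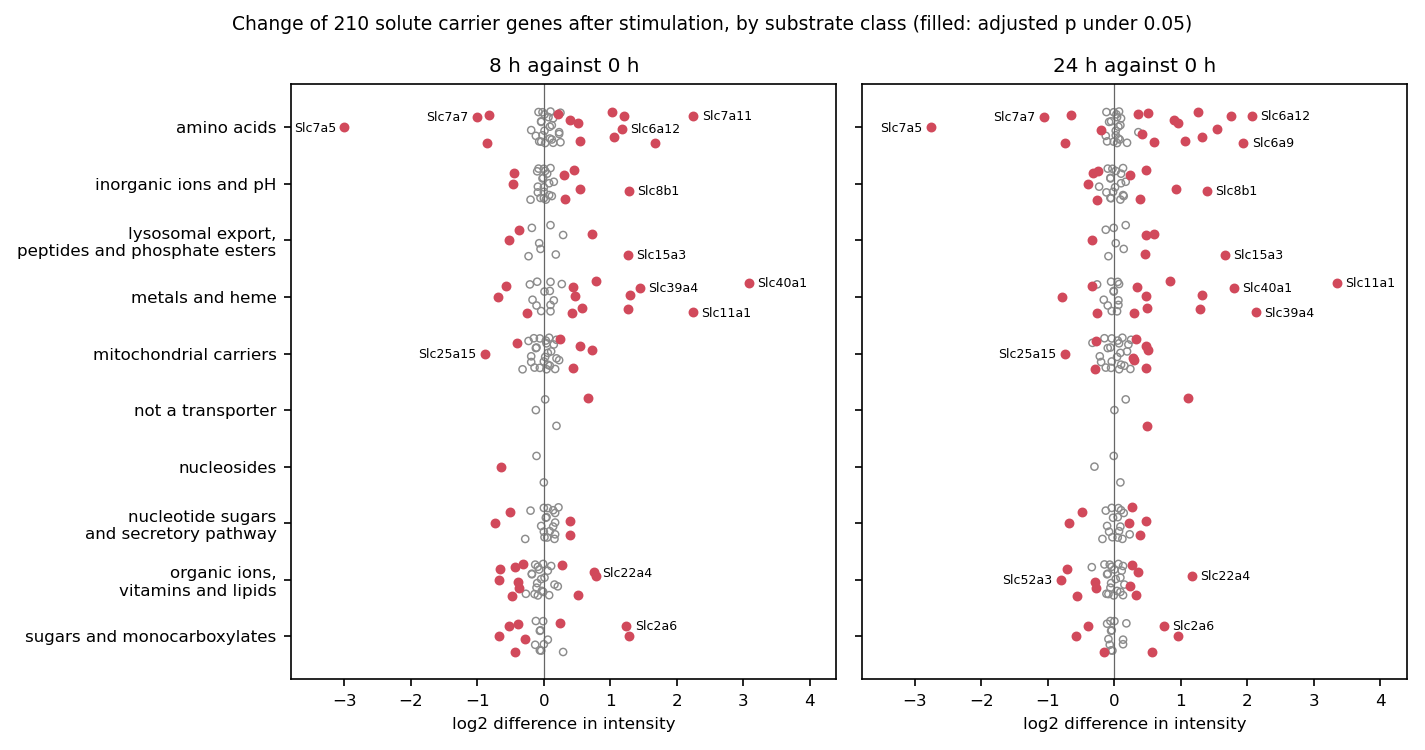
Log2 difference in intensity of each of the 210 genes (points) at 8 h (left) and 24 h (right) against 0 h, by substrate class. Filled points have an adjusted p under 0.05, and the widest spread is among the metal and heme carriers and the amino acid carriers, from -3.00 for Slc7a5 to 3.08 for Slc40a1 at 8 h.

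Of 25 metal and heme carriers, 10 were higher and 3 lower at 8 h, and 10 were higher and 3 lower at 24 h. For these and the class counts that follow, 15.0% of all genes tested were higher and 15.9% lower at 8 h. At 24 h the shares of all genes were 16.9% and 15.0%. Slc40a1, which encodes ferroportin, the exporter of iron from cells, had intensities of 359, 331 and 554 at 0 h in WT, relb-/- and crel-/-relb-/- cells. At 8 h its 6 arrays ran from 2695 through a median of 3112 to 5022, and at 24 h from 1138 through 1414 to 1691. The 3 ranges do not overlap, and the peak was at 8 h on both agents in every genotype. The log2 change was 3.08 ± 0.11 (SE) at 8 h (adjusted p = 8.55e-15) and 1.80 ± 0.11 at 24 h (adjusted p = 2.28e-11), and the fall from 8 to 24 h was -1.28 ± 0.09 (adjusted p = 1.10e-09), each in 6 of 6 genotype and agent pairs.

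Slc11a1 encodes NRAMP1, a divalent metal transporter of the phagosome membrane. Unstimulated, it had 887 in WT cells, 936 without RelB and 1403 without both subunits. The 8 h arrays lay between 3984 and 6006 (median 4953) and the 24 h arrays between 8919 and 13150 (median 10920). Unlike Slc40a1 it was higher at 24 h than at 8 h, by 1.12 ± 0.08 (adjusted p = 3.73e-09, 6 of 6 pairs), and no array at 8 h reached the lowest at 24 h. The change from 0 h was 2.24 ± 0.10 at 8 h and 3.35 ± 0.10 at 24 h (adjusted p = 4.70e-16). All 4 Slc11a1 probes rose, by 2.24 to 2.57 at 8 h and 3.35 to 3.71 at 24 h.

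Slc39a4, the zinc importer ZIP4, had intensities of 121 to 165 on the 9 arrays at 0 and 1 h and of 327 to 1260 (median 422) on the 12 arrays at 8 and 24 h. Its log2 change was 1.45 ± 0.21 at 8 h (adjusted p = 1.23e-05) and 2.13 ± 0.21 at 24 h (adjusted p = 5.26e-08). The 2 highest values, 1260 with CpG and 1059 with Pam3CSK4, were those of crel-/-relb-/- cells at 24 h, where WT cells had 327 and 532 and relb-/- cells 459 and 553. Slc48a1, which carries heme out of the endolysosome, went from 444 to 637 early to 815 to 1518 late (log2 1.30 ± 0.12 at 8 h, 1.32 ± 0.12 at 24 h). Slc11a2, the divalent metal transporter DMT1, went from 123 to 159 early to 257 to 473 late (1.26 ± 0.10 and 1.29 ± 0.10). Neither overlapped between early and late arrays.

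Smaller rises were found for the copper carriers Slc31a2 (0.79 at 8 h, 0.83 at 24 h) and Slc31a1 (0.57 and 0.49), for Slc41a2, a magnesium carrier (0.47 and 0.47), and for the zinc exporter Slc30a1 (0.43 and 0.30). The 24 h call of Slc30a1 was lost with normexp and quantile scaling, with no filter on dim probes, without the array that stood apart and without either knockout, and its 8 h call without relb-/- arrays. The 3 members that fell at both times were the zinc carrier Slc30a4 (-0.69 and -0.79), Slc41a3 (-0.57 and -0.34) and Slc39a8 (-0.26 and -0.26), whose probe was above 47.3 on only 11 arrays and whose calls were lost without crel-/-relb-/- arrays and without WT (8 h) or relb-/- arrays (24 h). The zinc and iron importer Slc39a14, at 43.6 to 54.7 on all arrays, was not called (-0.10 and -0.05, adjusted p = 0.221 and 0.601).

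Among 6 other listed genes of metal handling, 2 were higher and 1 lower at 8 h, and 4 were higher and 1 lower at 24 h. Hmox1, the enzyme that opens the heme ring and releases its iron, rose by 2.42 ± 0.11 at 8 h and 1.49 ± 0.11 at 24 h, and like Slc40a1 it was lower at 24 h than its 8 h value. Tfrc, the transferrin receptor, rose by 0.54 and 0.94. The ferritin genes Fth1 and Ftl1 were called only at 24 h (0.37 and 0.39), and Mt2, a metallothionein, fell (-0.59 and -0.94). The Ftl1 probe was near the background, at 44.1 to 74.7 and above 47.3 on only 15 arrays.

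**Figure D2:**
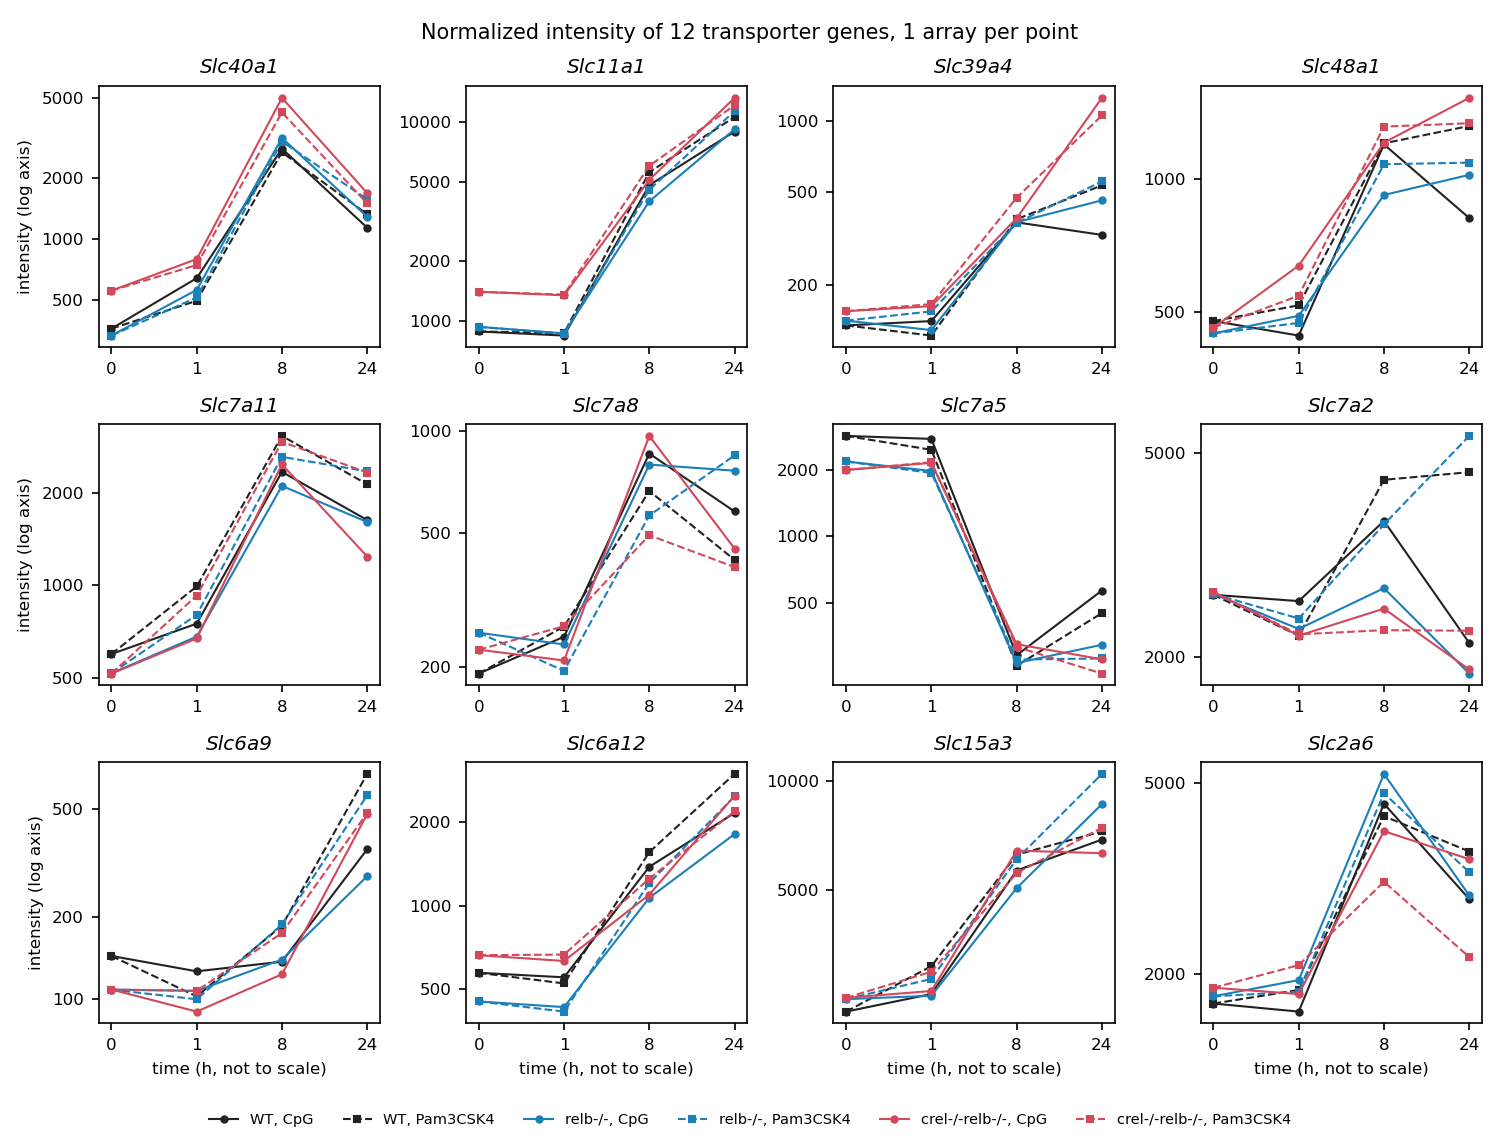
Normalized intensity (log axis) of 12 genes at 0, 1, 8 and 24 h, with 1 array per point, genotype by colour and agent by line style; the 0 h array of each genotype is drawn for both agents. Slc40a1 peaked at 8 h and Slc11a1 was highest at 24 h in all 3 genotypes, while Slc7a5 lay at 1932 or above at 0 and 1 h and at 569 or below at 8 and 24 h.

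Of 38 amino acid carriers, 10 were higher and 4 lower at 8 h, and 13 were higher and 5 lower at 24 h. Slc7a11 and Slc3a2 encode the light and the heavy chain of the exchanger that takes up cystine in return for glutamate. Slc7a11 had intensities of 597, 517 and 515 at 0 h in WT, relb-/- and crel-/-relb-/- cells, of 2112 to 3075 at 8 h (median 2555) and of 1242 to 2356 at 24 h (median 1885). No late array fell into the range of the early ones, whose highest was 992. The log2 change was 2.25 ± 0.09 at 8 h (adjusted p = 1.22e-13) and 1.76 ± 0.09 at 24 h (adjusted p = 4.36e-12). Slc3a2, which also pairs with the chains encoded by Slc7a5, Slc7a7 and Slc7a8, had 111 to 197 early and 216 to 455 late, a change of 1.05 ± 0.13 at 8 h and 1.06 ± 0.13 at 24 h (adjusted p = 2.17e-06).

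The light chains that share Slc3a2 moved in both directions. Slc7a5, the chain of LAT1 for large neutral amino acids, had 2839, 2176 and 1992 at 0 h in WT, relb-/- and crel-/-relb-/- cells. At 8 h its arrays lay between 261 and 326 and at 24 h between 240 and 569. This was the largest fall of any member, -3.00 ± 0.15 at 8 h (adjusted p = 3.38e-12) and -2.76 ± 0.15 at 24 h, and the lowest early array had 1932 against 569 on the highest late one.

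Slc7a8, the chain of LAT2, rose from 191 to 264 early to 396 to 970 late (1.67 ± 0.19 at 8 h, 1.31 ± 0.19 at 24 h). Slc7a7, a chain that carries cationic amino acids, fell from 178 to 286 early to 78.5 to 134 late (-1.01 ± 0.15 and -1.06 ± 0.15). For both genes the early and late arrays did not overlap. A second probe gave the same directions, 0.85 and 0.79 for Slc7a8 and -0.63 and -0.63 for Slc7a7.

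The listed genes of glutathione synthesis moved in the direction of Slc7a11. Gclm and Gclc, the subunits of the enzyme for the first step of glutathione synthesis, rose by 2.43 ± 0.08 and 1.25 ± 0.16 at 8 h and by 2.24 ± 0.08 and 1.39 ± 0.16 at 24 h. Of the 4 genes on the list of glutathione and itaconate genes, only these 2 had a passing probe, and both were called.

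Several carriers of the Slc6 family, which use the sodium and chloride gradient, were higher at 24 h than at 8 h, by 1.55 ± 0.11 for Slc6a9, 0.90 for Slc6a12 and 0.87 for Slc6a13, whereas Slc7a11 was lower at 24 h (-0.49 ± 0.08). Slc6a9, the glycine carrier GlyT1, had 144, 108 and 108 at 0 h in WT, relb-/- and crel-/-relb-/- cells, 123 to 188 at 8 h and 283 to 677 at 24 h. The 24 h arrays lay above every other array, and the change was 0.39 ± 0.13 at 8 h and 1.94 ± 0.13 at 24 h (adjusted p = 3.13e-10). Slc6a12, a carrier of betaine and GABA, rose from 414 to 666 early to 1067 to 1560 at 8 h and 1813 to 2990 at 24 h (1.17 ± 0.12 and 2.07 ± 0.12). Its neighbour in the family and on chromosome 6, the GABA carrier Slc6a13, had 482 to 498 at 0 h, 348 to 734 at 8 h and 749 to 1359 at 24 h, and it was called only at 24 h (0.96 ± 0.12, adjusted p = 3.09e-06). The creatine carrier Slc6a8 rose from 139 to 270 early to 299 to 821 late (1.20 ± 0.16 and 1.55 ± 0.16), and the taurine carrier Slc6a6 by 0.52 and 0.50.

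Slc32a1, the vesicular carrier of GABA and glycine, was at 40.1 to 58.9 up to 8 h and at 64.3 to 141 at 24 h (1.25 ± 0.13). It passed the brightness rule only through late arrays, so that its rise at 24 h is in part built into its choice. The lysosomal carrier Slc36a1 rose by 1.03 and 0.89 and the neutral amino acid carrier Slc43a2 by 0.54 and 0.60. Slc1a4, a carrier of alanine, serine and cysteine, fell from 74.4 to 122 early to 45.6 to 65.0 late (-0.86 and -0.74), and Slc7a4 fell by -0.82 and -0.65.

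Slc7a2, the arginine carrier CAT2, was bright on all arrays (1854 to 5412) and not called at 8 h (0.23, adjusted p = 0.344) or at 24 h (0.04, adjusted p = 0.897). A second, dimmer Slc7a2 probe gave 0.59 and 0.38 and the dimmest 0.06 and 0.09. Among 6 genes of arginine use, Arg1, the arginase that shares arginine with nitric oxide synthase, fell by -2.21 ± 0.17 and -1.49 ± 0.17. Ass1, which recycles citrulline towards arginine, rose by 1.25 ± 0.12 and 1.66 ± 0.12. Nos2, the inducible nitric oxide synthase, rose by 0.90 ± 0.21 at 8 h and was not called at 24 h (0.50, adjusted p = 0.0715). Slc25a15, which carries ornithine into mitochondria, fell from 107 to 125 early to 60.1 to 81.6 late (-0.89 ± 0.09 and -0.74 ± 0.09), while its second, dimmer probe changed by -0.14 at both times. Slc1a5 and Slc38a1, both carriers of glutamine, were near the background (42.7 to 53.9 and 44.2 to 56.0) and not called at any time.

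Promoter windows, from 250 bases before to 50 bases after a gene's start, were read from the RefSeq table of GRCm38.p6 because the genotypes lack NF-kB subunits. Windows were found for 167 of the 210 members. The kappaB consensus, searched by its degenerate letters on both strands, matched in 21 of 223 member windows (9.42%) and in 2779 of 32851 windows of all genes (8.46%), so the members' share was close to that of all genes. Among the 19 members that rose at least 2-fold at 8 or 24 h, 12 had a window and 2 of these a match, Slc6a12 and Slc32a1. The windows below are shown because they belong to the neighbouring Slc6a12 and Slc6a13, to Slc7a7, which fell, and to Slc11a1, the member with the largest rise, which has no match. Capitals mark matches to the kappaB consensus, which start 133 bases before the gene start in Slc6a12 (position -133), at -77 in Slc6a13 and at -124 in Slc7a7. The windows are chr6:121342324-121342623 (plus strand) for Slc6a12, chr6:121303389-121303688 (plus) for Slc6a13, chr14:54417653-54417952 (minus) for Slc7a7 and chr1:74374953-74375252 (plus) for Slc11a1. Slc6a12 and Slc6a13 have other annotated starts whose windows hold no match. A match describes the letters and says nothing of binding, and its absence covers only this window.
Slc6a12: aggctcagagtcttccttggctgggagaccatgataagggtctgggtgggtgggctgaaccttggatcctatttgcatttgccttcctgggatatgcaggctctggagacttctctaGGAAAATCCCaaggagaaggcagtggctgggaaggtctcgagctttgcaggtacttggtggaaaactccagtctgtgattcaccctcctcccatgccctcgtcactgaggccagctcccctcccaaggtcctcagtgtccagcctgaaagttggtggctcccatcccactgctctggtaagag
Slc6a13: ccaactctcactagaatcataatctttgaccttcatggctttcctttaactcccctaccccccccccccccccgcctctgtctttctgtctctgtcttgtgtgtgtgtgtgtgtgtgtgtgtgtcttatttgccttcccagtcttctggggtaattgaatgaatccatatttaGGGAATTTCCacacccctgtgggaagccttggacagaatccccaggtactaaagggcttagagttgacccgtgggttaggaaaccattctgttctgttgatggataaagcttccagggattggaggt
Slc7a7: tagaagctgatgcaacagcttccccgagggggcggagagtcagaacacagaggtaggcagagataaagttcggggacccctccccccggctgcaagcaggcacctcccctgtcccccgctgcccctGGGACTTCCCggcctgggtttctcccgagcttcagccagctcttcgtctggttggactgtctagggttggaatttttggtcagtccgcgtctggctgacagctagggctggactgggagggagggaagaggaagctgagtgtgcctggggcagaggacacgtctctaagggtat
Slc11a1: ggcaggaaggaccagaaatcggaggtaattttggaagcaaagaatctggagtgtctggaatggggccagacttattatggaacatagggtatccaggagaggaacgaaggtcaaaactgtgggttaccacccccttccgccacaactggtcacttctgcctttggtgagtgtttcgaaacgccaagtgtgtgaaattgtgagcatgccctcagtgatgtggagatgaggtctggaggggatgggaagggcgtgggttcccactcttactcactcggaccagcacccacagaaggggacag

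Lysosomal carriers of peptides and histidine rose at both times. Slc15a3 was among the brightest members, with 2310, 2500 and 2521 at 0 h in WT, relb-/- and crel-/-relb-/- cells, 5069 to 6435 at 8 h and 6332 to 10490 at 24 h. The late arrays all lay above the early ones, and the change was 1.26 ± 0.11 at 8 h (adjusted p = 1.00e-08) and 1.66 ± 0.11 at 24 h (adjusted p = 9.22e-11). Slc15a4, a carrier of the same family known to be needed for TLR9 signalling, rose from 154 to 192 early to 225 to 350 late (0.72 ± 0.11 and 0.60 ± 0.11). In the class of 11 lysosomal and related carriers, 2 rose and 2 fell at 8 h and 4 rose and 1 fell at 24 h. The sialic acid exporter Slc17a5 fell at 8 h (-0.53 ± 0.08).

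Among 18 carriers of sugars and monocarboxylates, 3 rose and 5 fell at 8 h, and 3 rose and 3 fell at 24 h. Slc2a6, the glucose transporter family member GLUT6, had 1739, 1800 and 1876 at 0 h, 3119 to 5231 at 8 h and 2174 to 3605 at 24 h (1.24 ± 0.13, adjusted p = 2.74e-07, and 0.74 ± 0.13). Slc2a1, the widely expressed glucose carrier GLUT1, had 1656 to 1908 at 0 h and was called only at 24 h (0.56 ± 0.12, adjusted p = 0.00119), where it lay between 2215 and 3654. Slc2a3, or GLUT3, fell from 100 to 114 early to 55.9 to 90.0 late (-0.53 and -0.58), and Slc50a1 fell by -0.68 and -0.39. Slc16a10, which carries aromatic amino acids, rose from 47.6 to 58.7 early to 97.5 to 158 late (1.28 ± 0.09 and 0.96 ± 0.09). The lactate exporter Slc16a3 lay at 48.2 to 72.1 on all arrays (-0.28 at 8 h, adjusted p = 0.0174, which was lost with the mean of its probes and without WT or relb-/- arrays). Slc16a1 and Slc28a2, also on the gene lists, had no passing probe, and Slc37a2 was above 47.3 on only 3 arrays.

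Of 6 tested genes of sugar use, 0 were higher and 2 lower at 8 h, and 2 were higher and 1 lower at 24 h. Pfkp, a phosphofructokinase, fell at both times (-0.69 and -0.86), and the hexokinase gene Hk2 was not called (-0.14 and -0.01, adjusted p = 0.281 and 0.972). Ldha, lactate dehydrogenase, fell at 8 h (-0.50 ± 0.09) and was not called at 24 h (-0.14, adjusted p = 0.279).

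In the class of inorganic ions and pH, with 27 members, 5 rose and 2 fell at 8 h and 5 rose and 4 fell at 24 h. Classes were set by gene or by family and can hold carriers of other substrates. Here these include the organic acid carriers Slc13a2, which fell at 8 h, and Slc13a3, which fell at 24 h. Slc8b1, the exchanger that moves calcium out of mitochondria in return for sodium, went from 322 to 504 early to 748 to 1332 late (1.28 ± 0.11 at 8 h, adjusted p = 1.13e-08, and 1.39 ± 0.11 at 24 h). The related plasma membrane exchanger Slc8a1 rose by 0.46 and 0.93. Slc12a2, which brings sodium, potassium and chloride into cells, rose by 0.54 and 0.38.

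Mitochondrial carriers of the Slc25 family changed by less than 2-fold. Of 31, 4 rose and 2 fell at 8 h, and 6 rose and 3 fell at 24 h, with log2 changes from -0.89 to 0.73. Slc25a12, the carrier of aspartate and glutamate, rose by 0.73 ± 0.11 and 0.51 ± 0.11, and the dicarboxylate carrier Slc25a10 by 0.55 and 0.32. The carnitine carrier Slc25a20 was called at 24 h (0.28 ± 0.09). The 24 h calls of Slc25a20 and Slc25a10 were lost with normexp and quantile scaling, with no filter on dim probes, and without WT or relb-/- arrays. Slc25a11, the carrier of oxoglutarate and malate, was called at neither time (-0.12 and 0.10, adjusted p = 0.496 and 0.589). The citrate carrier Slc25a1 was not called (0.06 and -0.04, adjusted p = 0.674 and 0.813).

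Of 22 nucleotide sugar carriers and related Slc35 and other secretory pathway members, 2 rose and 2 fell at 8 h and 4 rose and 2 fell at 24 h. Slc35c2 fell from 244 to 343 early to 148 to 203 late (-0.74 ± 0.09 and -0.68 ± 0.09), on all 3 of its probes. In the class of 31 carriers of organic ions, vitamins and lipids, 4 rose and 7 fell at 8 h, and 5 rose and 5 fell at 24 h. Slc22a4, the carrier of ergothioneine, had 66.6 to 74.2 at 0 h, 81.7 to 166 at 8 h and 135 to 181 at 24 h (0.75 ± 0.13 and 1.16 ± 0.13). The vitamin C carrier Slc23a2 rose by 0.79 and 0.35, the riboflavin carrier Slc52a3 fell by -0.37 and -0.81, and the folate carrier Slc19a1 fell by -0.67 and -0.72. Of 3 nucleoside carriers, Slc29a1 fell at 8 h (-0.64 ± 0.13). The remaining 4 members carry an Slc symbol but are not transporters, and 2 of them, the adaptor proteins Slc9a3r1 (0.67 and 0.49) and Slc9a3r2 (1.11 ± 0.11 at 24 h, 0.09 on its second probe), rose. Among cell type markers, 2 of 7 of macrophages were higher and 3 lower at 8 h, and 3 were higher and 1 lower at 24 h (sum 2513 to 3625 at 0 h, 5244 to 7907 at 24 h). Of 9 dendritic cell markers, 2 were higher and 6 lower at 24 h. Their part in the changes with time was not tested.

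At 1 h against 0 h, 3 members were higher and 0 lower, beside 0.831% and 0.283% of all genes tested. By limma's unadjusted p under 0.05, 11 members were higher and 7 lower. Slc25a25, a mitochondrial carrier of ATP and magnesium, had 106, 80.3 and 113 at 0 h in WT, relb-/- and crel-/-relb-/- cells and 126 to 204 at 1 h (0.70 ± 0.11, adjusted p = 6.78e-04). On the 1 h arrays its values with Pam3CSK4 (204, 176 and 203) were above those with CpG (132, 126 and 137). Slc40a1 was higher by 0.60 ± 0.11 (adjusted p = 0.00303) and Slc7a11 by 0.55 ± 0.09 (adjusted p = 0.00212), each in 6 of 6 pairs. None of the 3 calls remained when WT or relb-/- arrays were left out. The glutamine carrier Slc38a2 had the second largest difference at 1 h, 0.65 ± 0.18, and was not called (adjusted p = 0.110).

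Between 8 and 24 h, 33 members were higher at 24 h and 12 lower, beside 12.5% and 9.74% of all genes. The members that were at least 2-fold higher were Slc6a9 (1.55 ± 0.11), Slc9a3r2 (1.22 ± 0.09), Slc11a1 (1.12 ± 0.08) and Slc32a1 (1.00 ± 0.11), and Slc40a1 was the 1 member at least 2-fold lower.

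Between the agents few transporters differed. At 8 and 24 h, 0 members were higher with CpG and 4 higher with Pam3CSK4, beside 1.86% and 1.47% of all genes tested. By limma's unadjusted p under 0.05 these counts were 10 and 21. With the agents in 6 pairs of genotype and time, Slc7a11 was lower with CpG in 6 of 6 (log2 -0.47 ± 0.08, adjusted p = 0.00168), with 1242 to 2482 against 2137 to 3075. Slc6a9 was lower with CpG in 6 of 6 (-0.55 ± 0.11, adjusted p = 0.00778). At 24 h, WT cells had 356 with CpG and 677 with Pam3CSK4. The values were 283 and 564 in relb-/- cells, while crel-/-relb-/- cells had 481 and 486. Slc25a16, a mitochondrial carrier, was lower with CpG by -0.41 ± 0.08 (adjusted p = 0.00963), at 174 to 229 against 222 to 276.

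Slc7a2, the arginine carrier, was lower with CpG in 5 of 6 pairs (-0.57 ± 0.14, adjusted p = 0.0220). At 24 h it had 2129 with CpG and 4596 with Pam3CSK4 in WT cells and 1854 and 5412 in relb-/- cells. In crel-/-relb-/- cells the values were 1889 and 2249 at 24 h and 2484 and 2255 at 8 h, so the arrays of this genotype lay close together. Whether the agents differ less in crel-/-relb-/- cells was not tested. A second Slc7a2 probe gave -0.58 between the agents, and the dimmest gave -0.10. Of 7 macrophage markers 4 were higher and 1 lower with CpG at these times, and their part in the agent differences was not tested. Without WT arrays 0 of the 4 calls remained, and those of Slc7a2 and Slc6a9 were also lost without relb-/- arrays. The call of Slc25a16 was lost without crel-/-relb-/- arrays, and those of Slc25a16 and Slc7a2 when the agents were compared over 1, 8 and 24 h.

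**Figure D3:**
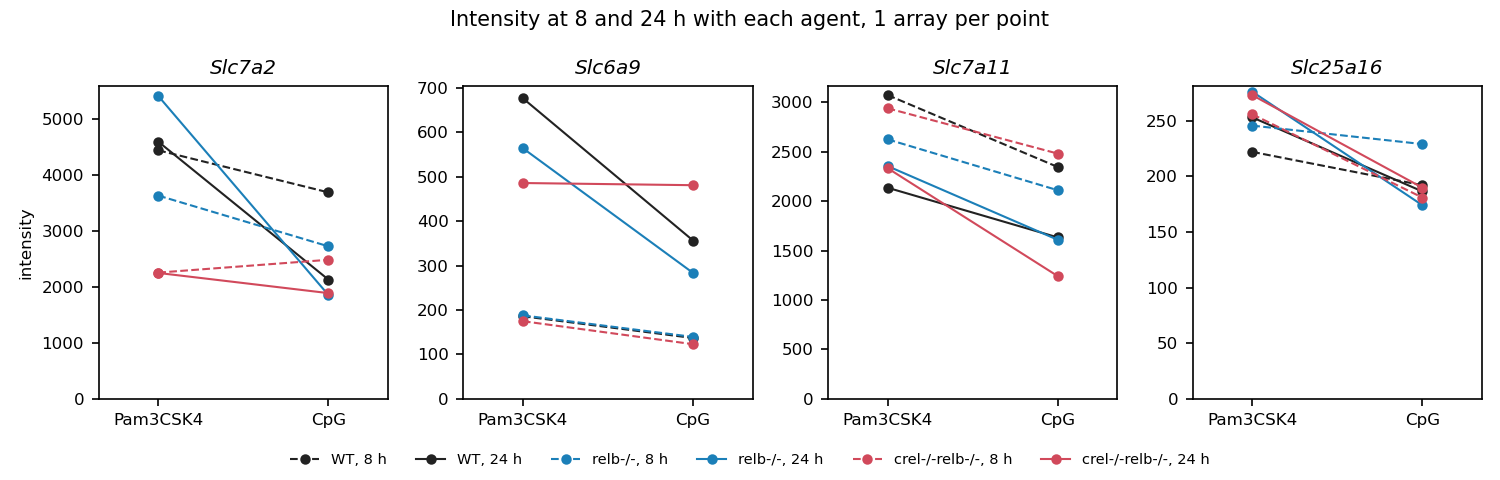
Intensity of the 4 genes called between agents, with Pam3CSK4 (left) and CpG (right) at 8 h (dashed) and 24 h (solid), and 1 array per point. Slc7a11 and Slc25a16 were lower with CpG in all 6 pairs, and the Slc7a2 values of crel-/-relb-/- cells lay between 1889 and 2484 with both agents.

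Most transporters lay near their WT levels in relb-/- cells, and more members were lower than higher. In relb-/- against WT cells, 5 members were higher (2.38%) and 18 lower (8.57%), beside 6.03% and 5.65% of all genes tested. Without the crel-/-relb-/- array that stood apart, which enters the shared estimate of spread, the counts were 10 and 26, and without the arrays with CpG at 1 h 13 members were called in all. The largest difference was that of Slc4a8, an exchanger of sodium, bicarbonate and chloride. The 7 WT arrays had 89.2 to 137 (median 109) and the 7 relb-/- arrays 38.3 to 43.8 (median 40.3), below the median of all values. The groups did not overlap, and the log2 difference was -1.41 ± 0.10 (adjusted p = 2.93e-09, 7 of 7 conditions). A second Slc4a8 probe gave -0.72. Since no relb-/- array and only 2 crel-/-relb-/- arrays exceeded 47.3, this gene passed the brightness rule mainly through WT cells and its difference is in part built into its choice. Markers of T and natural killer cells also moved with the genotypes. Of 5, the same 4 (Cd3d, Cd3e, Cd3g and Nkg7) were lower in relb-/- and in crel-/-relb-/- cells, while Klrd1 was higher in relb-/- (0.34 ± 0.07) and not called in crel-/-relb-/- cells (0.15, adjusted p = 0.144), with sums of 433 to 507 on WT arrays against 234 to 301 without RelB and 282 to 320 without both subunits. The part of those cells in the difference of Slc4a8 was not tested. Its promoter window, chr15:100761497-100761796 (plus strand, GRCm38.p6), is shown because it is the member with the largest genotype difference, with its kappaB match at -158 in capitals.
Slc4a8: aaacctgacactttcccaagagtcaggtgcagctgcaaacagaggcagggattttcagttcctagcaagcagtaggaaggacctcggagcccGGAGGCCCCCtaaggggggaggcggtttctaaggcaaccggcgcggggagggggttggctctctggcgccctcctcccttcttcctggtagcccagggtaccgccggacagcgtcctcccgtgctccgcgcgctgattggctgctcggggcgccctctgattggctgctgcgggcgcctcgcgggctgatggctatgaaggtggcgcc

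Slc46a3, a lysosomal carrier, had 142 to 181 in WT cells (median 168), 98.6 to 131 in relb-/- cells (median 118) and 151 to 208 in crel-/-relb-/- cells (median 185). Every relb-/- array lay below every array of the other genotypes. Against WT, relb-/- cells differed by -0.51 ± 0.08 (adjusted p = 1.82e-04). The double knockout was not called against WT (0.18, adjusted p = 0.138), and its difference from relb-/- was 0.69 ± 0.08 (adjusted p = 2.32e-06, 7 of 7 conditions).

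The creatine carrier Slc6a8 was lower in relb-/- than in WT cells in each of the 7 conditions (-0.47 ± 0.12, adjusted p = 0.0175), at 139 to 496 (median 299) against 193 to 624 (median 374), ranges that overlap because the gene also changed with time. In crel-/-relb-/- cells it had 240 to 821 (median 540). It was 0.78 ± 0.12 above relb-/- (adjusted p = 1.09e-04) and not called against WT (0.32, adjusted p = 0.0901). The 6 amino acid carriers called lower in relb-/- cells were Slc6a8, Slc7a5 (-0.39), Slc6a12 (-0.33), Slc32a1 (-0.33), Slc36a1 (-0.27) and Slc38a10, and 0 were higher. For Slc7a5 the difference lay mainly at 0 h (2176 against 2839), 1 h and 24 h (281 to 324 against 450 to 569), and the call was lost when any 1 of these conditions was left out. The calls of Slc6a8, Slc6a12 and Slc36a1 were lost without some single conditions, among them CpG at 1 h.

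The 5 members higher in relb-/- cells were Slc52a3 (0.34 ± 0.08), the zinc carriers Slc30a6 (0.31 ± 0.08), Slc39a1 (0.24 ± 0.07) and Slc39a10 (0.20 ± 0.06), and Slc25a47 (0.18 ± 0.05). Slc25a47 was above 47.3 on 7 relb-/-, 1 WT and 2 crel-/-relb-/- arrays, and Slc39a10 on 6, 2 and 2. Both passed the brightness rule mainly through relb-/- cells, so their differences are in part built into their choice. The call of Slc30a6 was lost without CpG at 1 h, and that of Slc39a10 without 0 h or CpG at 24 h. Slc52a3, which brings riboflavin into cells, had 629 in unstimulated WT cells against 887 without RelB and 807 without both subunits. Of 4 erythroid markers 1 was measured, Car2, and it was higher in relb-/- cells (140 to 242 against 77.7 to 125). Among metal carriers the copper importer Slc31a1 was lower in relb-/- cells (-0.29 ± 0.08, adjusted p = 0.0152), with 438 and 446 at 8 h against 639 and 625 in WT cells, and the call was lost without either 8 h condition. Among the other called members, Slc12a2 was lower by -0.36 ± 0.08 (-0.07 on its second probe), the folate carrier Slc19a1 by -0.30 ± 0.08 (lost without Pam3CSK4 at 24 h), Slc45a4 by -0.27 ± 0.07 and Slc17a5 by -0.27 ± 0.06.

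**Figure D4:**
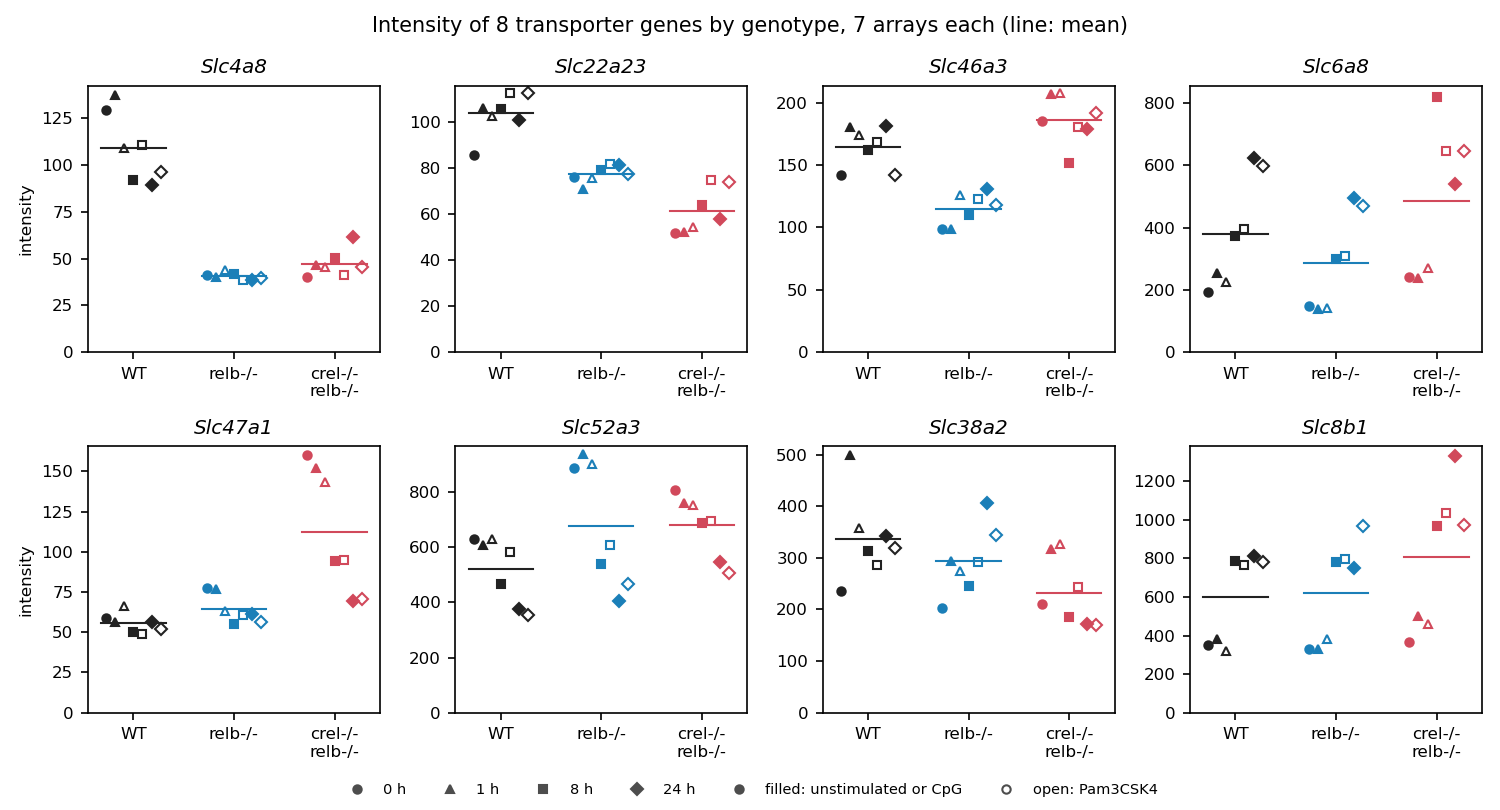
Intensity of 8 genes on every array by genotype, with time by marker shape, Pam3CSK4 open, and the mean over 7 arrays as a line. Slc4a8 in WT (89.2 to 137) did not overlap with the other genotypes, Slc46a3 in relb-/- cells (98.6 to 131) lay below both others, and Slc47a1 in crel-/-relb-/- cells (69.1 to 160) lay above WT.

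In cells lacking both subunits the shares called lay near those of all genes. In crel-/-relb-/- against WT cells, 20 members were higher (9.52%) and 12 lower (5.71%), beside 7.65% and 7.74% of all genes. Leaving out the array that stood apart, 30 were higher and 9 lower. Of the 25 members classed as metal and heme carriers, 5 were higher and 0 lower: Slc39a4, Slc40a1, Slc11a1, Slc30a6 and Slc49a4. The probe of Slc49a4 was near the background, above 47.3 on 3 WT, 5 relb-/- and 7 crel-/-relb-/- arrays. The iron exporter gene Slc40a1 was above WT in 7 of 7 conditions (0.54 ± 0.08, adjusted p = 8.07e-05), at 554 against 359 at 0 h and at 5022 and 4253 against 2811 and 2695 at 8 h. Slc11a1 was likewise above WT in 7 of 7 (0.42 ± 0.08, adjusted p = 7.14e-04), most clearly at 0 and 1 h, where the 3 arrays had 1347 to 1403 against 846 to 887. Slc39a4 was higher by 0.59 ± 0.16 (adjusted p = 0.0123) and by 0.40 without the array that stood apart, and its second probe gave 0.14. Slc30a6, a zinc carrier of the secretory pathway, was higher by 0.33 ± 0.08.

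Of the 6 listed genes of metal handling, 4 were above WT in crel-/-relb-/- cells and 0 below, and by limma 0 were called in relb-/- cells. They were Fth1 (0.23 ± 0.05), Ftl1 (0.19 ± 0.05, on a probe near the background), Mt1 (0.28 ± 0.05) and Mt2 (0.34 ± 0.11). Cell type markers moved with the same genotypes. Of 9 measured dendritic cell markers, 1 was above and 5 below WT in crel-/-relb-/- cells (median -0.23), and 0 were above and 3 below in relb-/- cells (median -0.10). Of 9 macrophage and monocyte markers 7 had a passing probe, of which 3 were above and 0 below WT in crel-/-relb-/- cells (median 0.00). Their summed intensity, in which Adgre1 was the brightest (667 to 6509 over all arrays), was 2937 to 7907 against 2296 to 5989. In relb-/- against WT cells 2 were higher and 4 lower (1987 to 5637 in relb-/-). Of 8 neutrophil markers 5 had a passing probe, of which 4 were above WT in crel-/-relb-/- cells (sum 2162 to 7239 against 541 to 4258), with S100a8 between 339 and 7015 on all arrays and Ngp above 47.3 on only 8. Of 5 eosinophil and mast cell markers 4 were measured, and 2 were above and 1 below WT (sum 334 to 1529 against 217 to 875). The 3 measured of 4 B cell markers were not called against WT in either knockout, with sums of 117 to 176 on all arrays. The part of these cell types in the differences of the metal carriers was not tested.

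Slc47a1, an exporter of organic cations, was the member furthest above WT. It had 48.9 to 66.1 in WT cells (median 56.1), 54.9 to 77.5 in relb-/- cells (median 61.1) and 69.1 to 160 in crel-/-relb-/- cells (median 94.6). The crel-/-relb-/- arrays lay above every WT array, with a difference of 0.94 ± 0.11 (adjusted p = 4.23e-06), and the 3 arrays at 0 and 1 h (144 to 160) were the highest. Slc16a6 was higher by 0.58 ± 0.10 (adjusted p = 3.00e-04), but its other 2 passing probes gave 0.12 and -0.03. Slc3a2 was higher by 0.42 ± 0.10 (6 of 7 conditions), Slc52a3 by 0.40 ± 0.08, Slc8b1 by 0.39 ± 0.08 and the lysosomal nucleoside carrier Slc29a3 by 0.34 ± 0.08. The phosphate carriers Slc20a1 (0.31 ± 0.08) and Slc20a2 (0.28 ± 0.08) were also higher.

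Lower in crel-/-relb-/- cells were Slc4a8 (-1.20 ± 0.10, 40.4 to 61.6) and Slc22a23, an orphan of the organic ion carriers. Slc22a23 had 85.7 to 112 in WT cells (median 106), 70.6 to 81.5 in relb-/- cells (median 77.2) and 51.9 to 74.7 in crel-/-relb-/- cells (median 57.7). WT arrays did not overlap with those of either knockout. Against WT, relb-/- cells differed by -0.42 ± 0.07 (adjusted p = 2.50e-04). The double knockout differed by -0.77 ± 0.07 (adjusted p = 6.73e-08), and the step from relb-/- to crel-/-relb-/- was -0.35 ± 0.07 (adjusted p = 6.61e-04, 7 of 7).

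The amino acid carriers lowered in crel-/-relb-/- cells were Slc38a2, Slc7a2, Slc6a13, Slc7a5 (-0.36 ± 0.12) and Slc1a4 (-0.25 ± 0.08). The calls of Slc7a5 and Slc1a4 were lost without the array that stood apart and when any 1 of 5 conditions (all but those at 8 h) was left out, and that of Slc7a5 also with no filter on dim probes. Slc38a2, a sodium-coupled carrier of neutral amino acids such as glutamine, had 236 to 500 in WT cells (median 320) and 170 to 327 in crel-/-relb-/- cells (median 210), lower in 7 of 7 conditions (-0.55 ± 0.14, adjusted p = 0.00909), and its other 2 probes gave -0.11 and -0.20. Slc7a2 was lower by -0.42 ± 0.13 (adjusted p = 0.0264), mainly at 8 h (2484 and 2255 against 3689 and 4441) and at 24 h with Pam3CSK4. Its other probes gave 0.05 and 0.03, and the call was lost with the mean of its probes or without either 8 h condition. Slc6a13 was lower by -0.37 ± 0.09 (adjusted p = 0.0101).

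**Figure D5:**
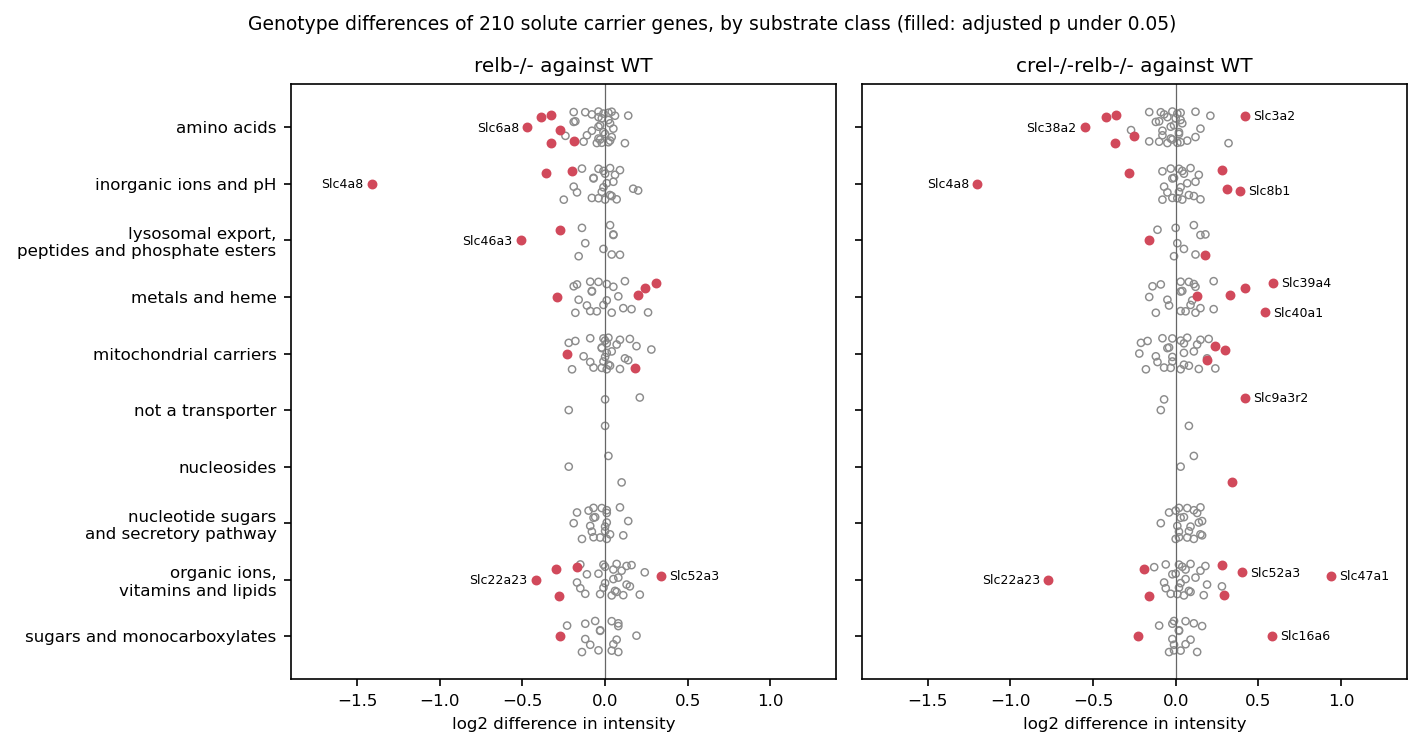
Log2 difference in intensity of each of the 210 genes (points) in relb-/- (left) and crel-/-relb-/- cells (right) against WT, by substrate class; both panels share the WT arrays. Filled points have an adjusted p under 0.05, and Slc4a8 is the lowest point in both panels, at -1.41 and -1.20.

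The comparison of crel-/-relb-/- with relb-/- cells, which differ by c-Rel in the labels, gave 35 members higher (16.7%) and 8 lower (3.81%), beside 10.5% and 9.28% of all genes tested. It shares its relb-/- arrays with the comparison of relb-/- with WT. By class, 6 amino acid carriers were higher and 1 lower, and 6 metal carriers were higher and 1 lower. In the class of inorganic ions and pH, 5 were higher, among them Slc13a2, and 2 lower, among them Slc13a3. Of the 11 lysosomal and related carriers, 4 were higher and 2, Slc17a8 and Slc15a2, were lower. Slc17a8 was above 47.3 on 7 WT, 7 relb-/- and 2 crel-/-relb-/- arrays, and Slc15a2 on 1, 2 and 0. Both passed the brightness rule mainly through the other genotypes, so their differences are in part built into their choice. The largest differences after Slc6a8 were those of Slc47a1 (0.73 ± 0.11) and Slc46a3. They were followed by Slc9a3r2 (0.63 ± 0.09), Slc39a4 (0.48 ± 0.16), Slc40a1 (0.46 ± 0.08), Slc11a1 (0.46 ± 0.08), Slc7a4 (0.45 ± 0.08) and Slc36a1 (0.43 ± 0.08). On the second, dimmer Slc9a3r2 probe the differences from WT were -0.07 in relb-/- and -0.01 in crel-/-relb-/- cells. The call of Slc39a4 was lost without the array that stood apart (0.29, adjusted p = 0.0531). Lower members included Slc22a23, Slc6a13 (-0.33 ± 0.09, lost without Pam3CSK4 at 24 h) and the zinc carrier Slc39a1 (-0.21 ± 0.07, lost when any 1 of 5 conditions was left out). Markers of other cell types moved in the same comparison: of the measured markers, 6 of 7 of macrophages and monocytes were higher and 1 lower (median 0.74), 5 of 5 of neutrophils were higher (median 0.75), and 3 of 4 of eosinophils and mast cells were higher (median 0.50). Of 9 dendritic cell markers 4 were higher and 3 lower (median -0.03). The part of these cell types in the transporter differences was not tested.

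The change from early (0 and 1 h) to late (8 and 24 h) arrays did not differ between genotypes for any member by limma at an adjusted p under 0.05. For relb-/- against WT, 0 members had a larger and 0 a smaller response (all genes 0.113% and 0.0567%), for crel-/-relb-/- against WT 0 and 0 (0.161% and 0.217%), and for crel-/-relb-/- against relb-/- 0 and 0 (0.264% and 0.255%). At an unadjusted p under 0.05 the counts were 4 and 13, 10 and 22, and 10 and 19. The members closest to a call were Slc2a3, Slc38a2 and Slc47a1. Slc2a3 fell further in relb-/- than in WT cells (-0.47, adjusted p = 0.131) and less in crel-/-relb-/- than in relb-/- cells (0.47, adjusted p = 0.0722). For Slc38a2 the late response of crel-/-relb-/- against relb-/- cells was -0.87 (adjusted p = 0.0742), and for Slc47a1 that of crel-/-relb-/- against WT cells was -0.68 (adjusted p = 0.0797). When the array of crel-/-relb-/- cells with CpG at 24 h was left out, 3 members were called for crel-/-relb-/- against WT, among them Slc11a1 (-0.50, adjusted p = 0.0448) and Slc2a6 (-0.60, adjusted p = 0.0336), and 2 for crel-/-relb-/- against relb-/-, among them Slc2a6 (-0.57, adjusted p = 0.0497).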

How the data were processed

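Total RNA from the 21 samples was labelled with biotin and hybridised to Illumina arrays, per the labels. The deposited values are normalized intensities on a linear scale for 25697 probes. The method of normalization by the authors, and where the probes lie, are not given in the sources used here. Array medians lay between 47.1 and 47.4. The other 21 columns of per-sample values in the files could not be matched to a sample and were not used. The number of arrays limits the precision.

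Probes were named from the platform annotation. A probe was kept if its intensity of rank 3 among 21 exceeded 47.3, and the brightest passing probe stood for each of 10587 genes (210 transporters, from 276 passing probes, 48 genes having several). Log2 intensities were fitted with limma 3.58.1 in R 4.3.3 (lmFit, eBayes with trend) with genotype and condition as additive terms. The difference in late response is an interaction of genotype with time (8 and 24 h against 0 and 1 h). Adjusted p is Benjamini-Hochberg over all genes. The procedure was run on data simulated with independent noise, which does not cover the spread between animals. Folds are on the log2 intensity scale.

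Genes were named by a rule: per comparison the up to 12 called members with the largest difference in each direction and the same sign in every pair, per class the up to 4 largest changes with time, and the lists of transporters, partner genes and cell type markers. Other genes are named to complete a class. The members and lists were chosen with earlier results of these data known. Of 13 other pumps and transporters on those lists, 10 were tested, with 2 higher and 3 lower at 8 h and 4 lower and 0 higher in crel-/-relb-/- against WT cells. Alternatives were normexp background correction with offset 50 and quantile scaling, cyclic loess, an offset of 16, no filter on dim probes, eBayes without trend, the mean of a gene's passing probes, other times for the agents, and leaving out arrays.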

Additional observations from a re-analysis of the deposited data

How the results depend on the processing

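With 1 array for each genotype and condition, agreement over conditions is the only check on a difference, and probes near the background may understate folds. The reported fit already pairs arrays by condition or by genotype, and with 1 array for each there is no further replicate to block on. No called difference of a named gene changed sign under any alternative run: of 161, 113 were called under all and 48 were lost under at least 1, while 27 of 282 that were not called gained a call. Genes named for the size of a difference were chosen with the same sign in every pair. Leaving out a condition or a genotype could therefore not reverse them, and this choice also favours calls that are kept. Under the scaling alternatives the median log2 difference of all genes lay between -0.009 and 0.007 in every comparison. Between agents, 7 transporters instead of 4 were called with normexp and quantile scaling, with eBayes without trend and with the mean of passing probes. For the late response, 1 was called in crel-/-relb-/- against WT with normexp and with an offset of 16, and 1 in crel-/-relb-/- against relb-/- without trend and with the mean of probes (Slc2a3, 0.47). Leaving out 1 condition, 1 genotype or the array that stood apart gave 13 to 36 calls for relb-/- against WT (23 as reported), 0 to 4 at 1 h (3), 0 to 5 between agents (4), 0 to 3 for the late response of crel-/-relb-/- against WT (0) and 0 to 2 against relb-/- (0). The count of 13 came without the CpG arrays at 1 h, 36 without the array of crel-/-relb-/- cells with CpG at 24 h, and the counts of 0 without WT (at 1 h and between agents) or without relb-/- (at 1 h). The corresponding ranges were 24 to 39 for crel-/-relb-/- against WT, 31 to 48 against relb-/-, 55 to 82 at 8 h and 56 to 80 at 24 h. The cause was not tested.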
